A study of Mus musculus with 2 samples.

Results

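Granzymes and the other cytotoxic effectors of killer lymphocytes were followed across the cells of a small intestinal epithelial preparation of the mouse. The group was set by gene symbol and by no measured cut, though its members were chosen with earlier results of these data known. It holds 9 of the 55357 gene rows listed for both libraries: the granzyme genes Gzma, Gzmb and Gzmk, the pore former Prf1, the granule proteins Nkg7 and Ctsw, the death ligand Fasl, and the chemokines Ccl5 and Xcl1. All 9 had a row in both libraries and all 9 were detected in both, so no member was lost to a filter on low values.

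The study asked how adiponectin made by the gut epithelium acts on crypt cells, and sequenced crypt-enriched small intestinal epithelium with the 10x Genomics 3′ v3 kit. The control library came from Adipfl/fl mice, which carry floxed adiponectin alleles and no Cre. The other library came from Adipfl/flpVilli-CreT mice, which carry the same floxed alleles and a Cre transgene under the villin promoter, which is active in epithelial cells and not in T cells. Each library is 1 sample made from pooled male mice that were 8 weeks old, so no test between genotypes was possible, and every interval below covers counting error only.

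Cytotoxic lymphocytes kill a target cell by releasing granules onto it. Perforin opens the target membrane, granzymes, a family of serine proteases, then enter and cut proteins inside it, and Fas ligand on the killer surface starts a separate death pathway. The small intestinal epithelium holds many such cells as intraepithelial T lymphocytes, among them gamma delta T cells and CD8 T cells, which in mice are known for high granzyme expression without an infection.

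Of 9791 control barcodes and 11838 CreT barcodes, 3069 and 5555 had over 500 genes and under 25% of their unique molecular identifiers (UMIs, each counting 1 captured RNA molecule) from mitochondrial genes. The median depth of these barcodes was 4838 and 4749 UMIs. Clustering without the 9 members gave 3 T cell-like clusters, in which 16 to 19 of 19 T cell markers were enriched, with 471 control and 555 CreT barcodes. In these clusters 5 to 8 of 10 natural killer or innate lymphoid markers and 3 to 4 of 12 myeloid markers were also enriched. The libraries shared 31 barcode sequences, of which 3 passed in both and 1 was T cell-like in both. Adiponectin itself had 1 UMI in the control library and 0 in the CreT library, too few to check the genotype. Levels are UMIs summed over the barcodes of a class and scaled to 1000000 UMIs of that class (CPM). UMIs were counted at the 3′ end, so levels of different genes are compared as numbers of molecules and not per transcript length.

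The members lie apart in the genome, apart from one pair. In GRCm38, Gzma (ENSMUSG00000023132) spans chr13:113093825-113100981 and Gzmk (ENSMUSG00000042385) spans chr13:113171608-113225908, both on the minus strand and 70626 bases apart. Gzmb (ENSMUSG00000015437) is at chr14:56258838-56262260 on the minus strand. The annotated gene bodies of Gzmk, Xcl1 and Ctsw overlap Esm1, Gm20743 and Fibp, each on the opposite strand, and no overlap was annotated for the other 6 genes. How strand was used in counting is not given in the sources used here, so reads of these overlapping pairs may not be told apart.

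The 250 bases before the annotated start of 7 of the 9 members were read from RefSeq sequence of GRCm38.p6, with no entry for Ccl5 and Ctsw. The windows of the 4 members whose levels separated the T cell groups described below are shown, each 5′ to 3′ on the strand of its gene. Gzma is the window chr13:113100982-113101231 (minus), Gzmb chr14:56262335-56262584 (minus), Gzmk chr13:113180966-113181215 (minus) and Xcl1 chr1:164935523-164935772 (minus). The RefSeq start of Gzmk lies inside the gene span given above, which begins further upstream. Capitals mark exact matches on either strand to the RUNX motif TGTGGT, which reads ACCACA on the other strand, or the T-box motif GGTGTGA. Both families hold transcription factors known in cytotoxic T cells.
Gzma: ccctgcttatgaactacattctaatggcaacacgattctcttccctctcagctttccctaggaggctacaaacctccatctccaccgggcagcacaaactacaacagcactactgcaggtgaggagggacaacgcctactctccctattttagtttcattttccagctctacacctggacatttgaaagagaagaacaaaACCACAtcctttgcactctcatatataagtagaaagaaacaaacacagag
Gzmb: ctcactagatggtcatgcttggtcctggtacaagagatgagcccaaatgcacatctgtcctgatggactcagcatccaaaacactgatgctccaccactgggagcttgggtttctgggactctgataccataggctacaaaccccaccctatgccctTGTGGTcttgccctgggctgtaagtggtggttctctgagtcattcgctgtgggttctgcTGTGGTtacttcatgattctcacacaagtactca
Gzmk: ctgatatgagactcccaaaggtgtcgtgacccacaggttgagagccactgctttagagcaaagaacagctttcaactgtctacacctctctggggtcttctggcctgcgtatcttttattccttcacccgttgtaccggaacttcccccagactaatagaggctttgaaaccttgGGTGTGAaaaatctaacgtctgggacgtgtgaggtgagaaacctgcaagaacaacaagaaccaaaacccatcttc
Xcl1: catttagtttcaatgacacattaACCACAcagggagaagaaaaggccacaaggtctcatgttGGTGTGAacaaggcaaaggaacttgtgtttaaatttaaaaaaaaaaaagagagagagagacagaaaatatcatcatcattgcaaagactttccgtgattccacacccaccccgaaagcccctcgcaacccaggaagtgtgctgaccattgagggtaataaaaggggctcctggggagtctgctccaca
The RUNX letters stood once in the windows of Gzma, Prf1, Nkg7 and Xcl1 and 2 times in that of Gzmb, against 14.0% of 32851 mouse promoter windows of the same length that held them at least once. The T-box letters stood in the windows of Gzmk, Nkg7 and Xcl1, against 3.33% of all windows. The STAT motif TTCNNNGAA, found in 7.02% of all windows, matched only in Nkg7 among the 7, and the window of Fasl held none of the 3 motifs. The motifs do not overlap each other in these windows, and a match is a description of the letters.

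Nearly all member RNA lay in T cell-like barcodes. They held 99.2% of the 166750 member UMIs among control barcodes that passed and 95.9% of 179680 in CreT, although they made up 15.3% (95% interval 14.1 to 16.7) and 9.99% (9.21 to 10.8) of those barcodes. This share and its gap between the libraries depended on the mitochondrial filter. With a limit of 10%, 440 of 1236 control and 482 of 2015 CreT barcodes were T cell-like. With only protein-coding mitochondrial genes counted, 494 of 7637 and 573 of 9729 were. Within T cell-like barcodes the 9 genes summed to 56103 CPM (55833 to 56374) in the control and 54294 CPM (54037 to 54550) in CreT, so that 5.61% and 5.43% of all their RNA molecules came from 9 genes. Gzma and Ccl5 alone gave 48.6% and 37.5% of the member UMIs in the control and 46.6% and 38.1% in CreT. Markers of other cells that can hold these genes were present at lower levels. The 10 natural killer or innate lymphoid markers summed to 213 and 176 CPM in T cell-like barcodes, with 1 and 2 of them at 0, against 10934 and 10761 CPM for the 19 T cell markers, and their part in the member levels was not tested.

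**Figure D1:**
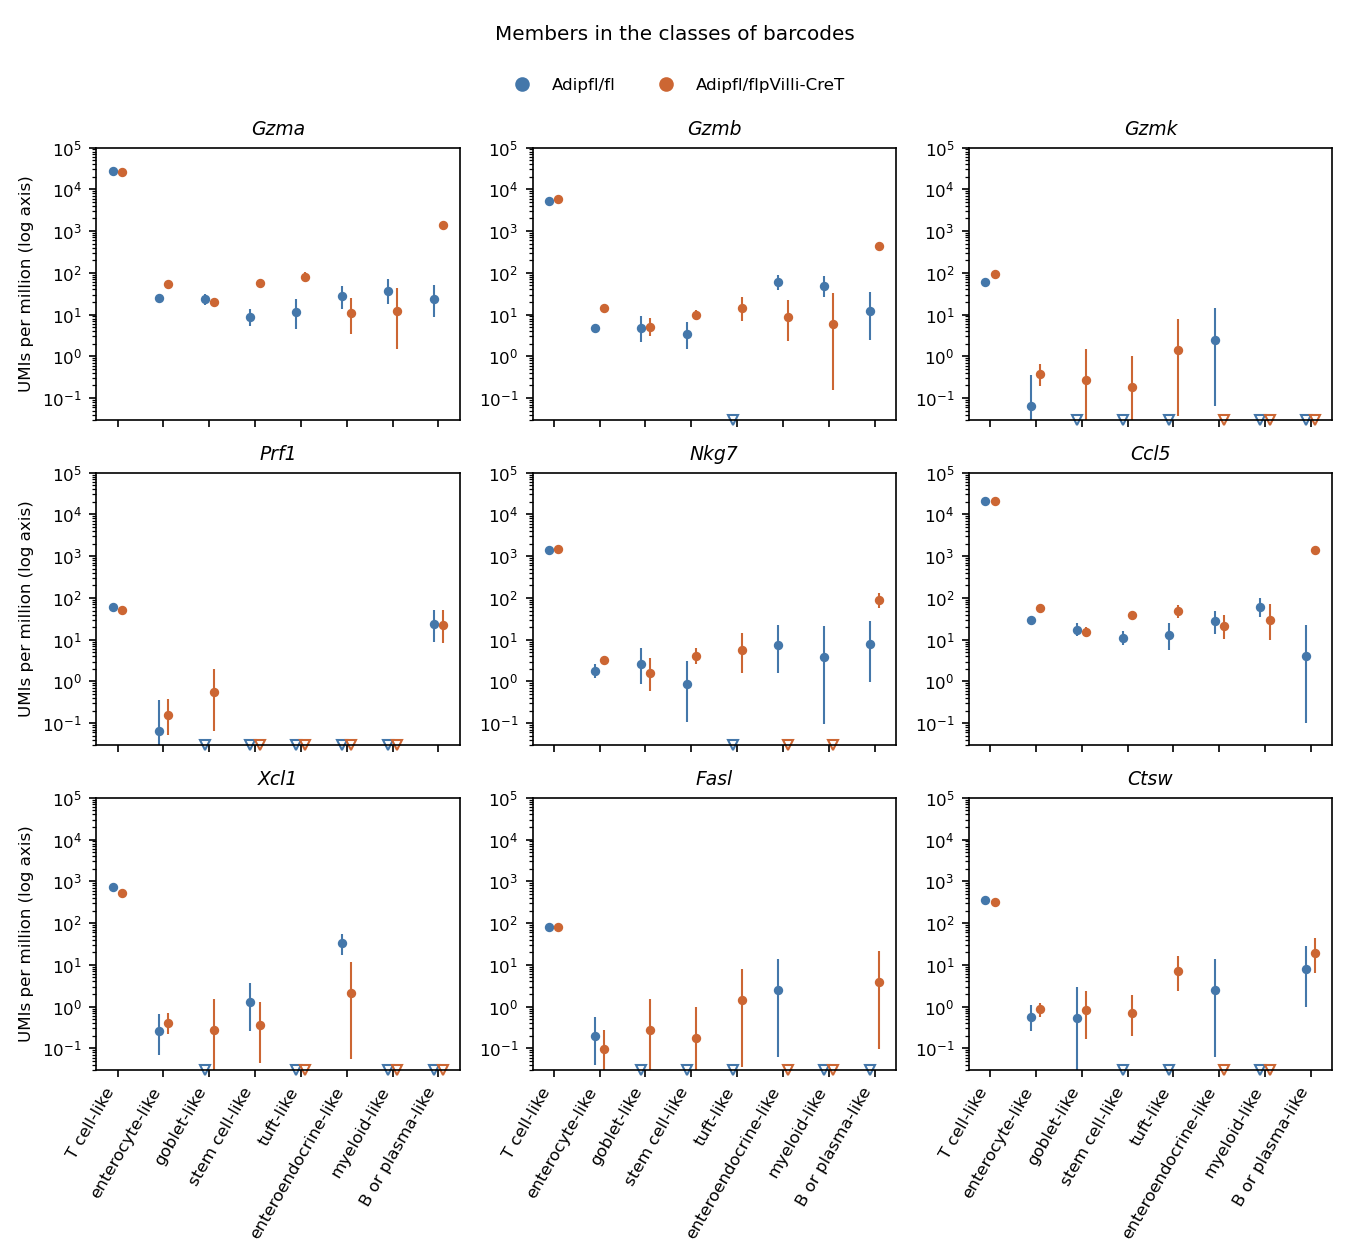
Level of each member (CPM, log axis) in 8 cell classes, with 1 panel per gene, 1 point per library (Adipfl/fl and Adipfl/flpVilli-CreT) and exact 95% Poisson intervals for counting error as bars; open triangles at the base mark 0 UMIs. In every panel the T cell-like points lie above those of every other class drawn, and the cycling-like and unnamed classes are not drawn.

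Enterocyte-like barcodes, which should not make these genes, gave the background of each library. Enterocyte-like barcodes (1851 control, 3649 CreT) held 0.585% and 2.27% of the member UMIs, and the summed level was 62.8 CPM in the control and 130 CPM in CreT. T cell-like barcodes stood 894-fold (839 to 953) above this background in the control and 418-fold (405 to 432) in CreT, and 174-fold and 105-fold with a mitochondrial limit of 10%, under which 3 and 14 of the T cell-like barcodes fell among the enterocyte-like ones. For single genes the enterocyte-like level was 25.2 and 52.4 CPM for Gzma, 29.8 and 58.1 CPM for Ccl5, 4.82 and 14.2 CPM for Gzmb, 1.80 and 3.30 CPM for Nkg7, and under 1 CPM for each of the other 5 genes in both libraries.

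The higher background of the CreT library rested on a few barcodes. Of its enterocyte-like barcodes 2738 had no member UMI, 898 had 1 to 9, and 13 had 10 or more. These 13 held 72.1% of the class's member UMIs, 12 of them also had CD3 UMIs, and their median depth was 25731 UMIs against 4152 for the rest. In the control, 1 barcode of this kind held 38.4%. Without them the background was 38.7 CPM in the control and 36.6 CPM in CreT, a CreT to control ratio of 0.945 (0.855 to 1.05), and the T cell-like level stood 1449-fold and 1484-fold above it. The cut was made on the member UMIs themselves, so a lower background and higher folds follow from it. It cannot show whether the backgrounds of the libraries are equal. Of the remaining UMIs Gzma gave 46.1% (42.0 to 50.2) and 40.2% (37.3 to 43.1), against 48.6% and 46.6% in T cell-like barcodes. Ccl5 gave 37.6% and 39.1%, against 37.5% and 38.1%. Gzmb gave 10.8% and 15.8% (13.7 to 18.0), against 9.13% and 10.6%. After the cut, the CreT share of Gzma was thus lower and that of Gzmb higher than in T cell-like barcodes beyond counting error. Without the cut the CreT shares were 40.3% (38.8 to 41.9) for Gzma and 10.9% (9.97 to 11.9) for Gzmb, whose interval includes 10.6%. The cut acts on the UMIs that are compared, so it can itself shift these shares.

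Single barcodes also carried the member RNA of smaller classes. The cycling-like CreT class read 2528 CPM over the 9 genes, and 5 of its 66 barcodes held 98.9% of those UMIs. The B or plasma-like CreT class read 3356 CPM, and 2 of 29 barcodes held 97.6%. In the control enteroendocrine-like class, Xcl1 read 32.6 CPM with all 13 UMIs in 1 barcode. All 8 of these barcodes, that of the enteroendocrine-like class included, also carried CD3 UMIs. No doublets were removed, and whether these barcodes hold more than 1 cell was not tested.

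In T cell-like barcodes the granzymes differed by over 2 orders of magnitude. Gzma, a tryptase, read 27246 CPM (27058 to 27436) in the control and 25315 CPM (25141 to 25491) in CreT. The count behind it was 80337 UMIs in each library, the same number in both, spread over 346 and 418 barcodes. Gzmb, a protease that cuts after aspartate and can activate caspases, read 5123 CPM (5041 to 5205) and 5739 CPM (5656 to 5823). Gzmk, a tryptase known in less differentiated memory CD8 T cells, read 59.0 CPM (50.6 to 68.5) from 174 UMIs and 94.2 CPM (83.8 to 106) from 299 UMIs. Gzma was thus the most abundant of the 3 in both libraries, Gzmb the next and Gzmk the least, with no overlap of their counting intervals.

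Perforin RNA was scarce beside Gzma and Gzmb. Against Gzmk, at 59.0 and 94.2 CPM, it was about level in the control and lower in CreT. Prf1 read 60.7 CPM (52.1 to 70.3) in the control and 52.3 CPM (44.7 to 60.9) in CreT, and these intervals overlap. In the control 23 of its 179 UMIs came from 1 barcode. Fasl, which encodes Fas ligand, was almost the same in both libraries at 82.8 CPM (72.7 to 93.8) and 82.2 CPM (72.6 to 92.9).

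The granule proteins were of middle abundance. Nkg7, a membrane protein of the cytolytic granule that takes part in its release, read 1430 CPM (1387 to 1474) in the control and 1460 CPM (1418 to 1503) in CreT. Ctsw, a cysteine protease of cytotoxic lymphocytes, read 353 CPM (332 to 375) and 321 CPM (302 to 342).

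Of the chemokines, Ccl5, which draws leukocytes and is stored in T cells ready for release, read 21033 CPM (20868 to 21200) in the control and 20706 CPM (20548 to 20865) in CreT. Xcl1, the ligand by which lymphocytes call XCR1-bearing dendritic cells, read 716 CPM (685 to 747) and 523 CPM (498 to 549). Its UMIs were concentrated, since the richest barcode held 246 of 2110 in the control and 393 of 1660 in CreT. No other member had so large a share in 1 barcode in CreT.

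Between genotypes, most members differed little in T cell-like barcodes. A ratio of 1.5 in either direction was taken as the mark of a difference worth counting, and 1 of the 9 members passed it. Gzmk was 1.60-fold (1.32 to 1.94) higher in CreT. Over 10967 genes with at least 20 UMIs, 10.0% were higher and 6.71% were lower in CreT by the same mark, so 1 higher and 0 lower of 9 is close to the background. The ratio of CreT to control was 0.929 (0.920 to 0.938) for Gzma, 1.12 (1.10 to 1.15) for Gzmb, 0.984 (0.974 to 0.995) for Ccl5, 0.911 (0.835 to 0.994) for Ctsw and 0.731 (0.685 to 0.780) for Xcl1. The intervals of Prf1 at 0.862 (0.693 to 1.07), Nkg7 at 1.02 and Fasl at 0.994 include 1. The 9 genes summed gave 0.968 (0.961 to 0.974), and their median log2 ratio of -0.02 lay near the -0.04 of all genes. These intervals leave out the spread between mice, which 1 library per genotype does not show. The Gzmk ratio fell under the mark, to 1.31 from 1.60, when T cells were taken as all barcodes with at least 2 CD3 UMIs, and to 1.40 in the T cell-like barcodes with the least enterocyte RNA. Xcl1 passed the mark as lower, at 0.583 with T cells taken by CD3 UMIs and at 0.631 without the richest barcode of each library. It stood at 0.970 without cycling barcodes, and at 0.836 when the richest non-cycling barcode of each library was also left out.

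Contents of the T cell-like barcodes other than the members also differed between the libraries. The 10 enterocyte markers took 0.324% of their UMIs in the control and 0.737% in CreT, and the 7 goblet markers read 255 and 5223 CPM. Mitochondrial genes took 3.43% and 4.08%. The part of this epithelial RNA in the member ratios was not tested, and in the T cell-like barcodes at or below the median enterocyte marker share of their library the summed ratio was 0.987.

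Shares of barcodes with a member were compared at one depth by thinning each barcode to 2000 UMIs. This kept 449 control and 507 CreT T cell-like barcodes and left out 22 and 48. Gzma was seen in 71.3% (66.8 to 75.4) and 73.2% (69.1 to 77.0), Gzmb in 70.2% and 69.0%, and Gzmk in 8.46% and 13.6%. Ccl5 was seen in 91.8% and 90.9%, Nkg7 in 90.4% and 89.0%, Ctsw in 51.4% and 47.7%, and Xcl1 in 20.0% and 17.2%. Fasl was seen in 16.0% and 13.8% and Prf1 in 11.1% and 10.8%. At least 1 member was present in 98.7% and 98.6% of T cell-like barcodes, against 9.44% and 9.88% of enterocyte-like barcodes at the same depth.

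The same thinning gives the background share in enterocyte-like barcodes, which should lack these genes. There Gzma was seen in 5.18% of 1738 control and 4.16% of 3482 CreT barcodes, Ccl5 in 3.11% and 4.59%, Gzmb in 1.04% and 1.44% and Nkg7 in 0.288% and 0.402%. Gzmk was seen in 0 of 1738, which allows a share of barcodes with a UMI of up to 0.173% by 3 counts of the total and 0.212% by the exact limit, and in 0.0862% in CreT. Every member was thus seen in a larger share of T cell-like than of enterocyte-like barcodes in both libraries. Without thinning, at median depths of 5214 and 4554 UMIs for T cell-like and 4230 and 4161 UMIs for enterocyte-like barcodes, Gzma was in 73.5% and 75.3% of T cell-like barcodes.

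Subsets were set by receptor and coreceptor transcripts, which use no member. Gamma delta barcodes had Trdc and neither Cd8b1 nor Cd4 (238 control, 259 CreT), and CD8 alpha beta barcodes had Cd8b1 and neither Trdc nor Cd4 (37 and 102). CD4 barcodes had Cd4 alone (14 and 21), and the remaining 182 and 173 T cell-like barcodes fell in none of the 3 gates. Trac, a gene of the T cell receptor alpha chain, was in no gate. It read 297 and 249 CPM in gamma delta barcodes and 629 CPM in control CD8 alpha beta barcodes. Trdc read 1138 and 1113 CPM in gamma delta barcodes. The CD8 alpha beta gate took 7.86% (5.59 to 10.7) of T cell-like barcodes in the control and 18.4% (15.2 to 21.9) in CreT, and 6.01% and 13.8% after thinning to 2000 UMIs. In enterocyte-like barcodes at that depth the gate took 0 of 1738, with an exact upper limit of 0.212%, and 1 of 3482.

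Gamma delta barcodes carried more Gzma and Gzmb than CD8 alpha beta barcodes, and far less Gzmk, in both libraries. Gzma read 30908 CPM (30629 to 31189) in control and 30219 CPM (29952 to 30488) in CreT gamma delta barcodes, against 8252 CPM (7919 to 8595) and 14165 CPM (13860 to 14476) in CD8 alpha beta barcodes. Within each library the gamma delta level was 3.75-fold (3.59 to 3.91) and 2.13-fold (2.08 to 2.18) that of CD8 alpha beta. Without the richest barcode of each subset these ratios were 4.73 and 2.32. In non-cycling barcodes, again without the richest, Gzma read 30813 and 31417 CPM in gamma delta against 9946 and 12012 CPM in CD8 alpha beta. The size of the ratios and their gap between libraries thus depended on cycling and single barcodes. Gzmb read 6002 and 6891 CPM in gamma delta and 1818 and 3314 CPM in CD8 alpha beta barcodes, ratios of 3.30 (3.02 to 3.62) and 2.08 (1.98 to 2.18). Gzmk went the other way, with 19.1 and 31.5 CPM in gamma delta against 332 and 336 CPM in CD8 alpha beta barcodes, ratios of 0.0575 (0.0365 to 0.0880) and 0.0937 (0.0674 to 0.128). Gzmk was therefore the one granzyme of the 3 with its higher level in the CD8 alpha beta gate. T cell-like barcodes outside the gates, without the richest of each library, read 28085 and 25712 CPM of Gzma. Their Gzmb read 4945 and 5483 CPM and their Gzmk 35.2 and 43.4 CPM. These levels lay nearer to those of gamma delta than of CD8 alpha beta barcodes, so the profile was not particular to the gamma delta gate.

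Of the 2 chemokines, Xcl1 divided the subsets in both libraries, while Ccl5 passed 1.5-fold in the control only, and only with cycling barcodes included. Xcl1 read 759 and 760 CPM in gamma delta against 200 and 83.1 CPM in CD8 alpha beta barcodes, ratios of 3.79 (2.90 to 5.05) and 9.15 (6.86 to 12.5), and 44 of the 56 control CD8 alpha beta UMIs were in 1 barcode. Without the richest barcode of each subset the Xcl1 ratios were 13.4 and 9.15. Ccl5 read 21530 and 21120 CPM in gamma delta against 12460 and 19503 CPM in CD8 alpha beta barcodes, ratios of 1.73 (1.67 to 1.79) and 1.08 (1.06 to 1.11). In non-cycling barcodes, without the richest of each subset and library, Ccl5 read 27458.5 and 29765 CPM in gamma delta barcodes. The CD8 alpha beta levels there were 20293 and 24684 CPM, so both libraries stayed under 1.5-fold.

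The granule proteins, perforin and Fas ligand stayed under 1.5-fold between the subsets. Nkg7 read 1432 and 1510 CPM in gamma delta and 1540 and 1582 CPM in CD8 alpha beta barcodes. Fasl read 82.3 and 75.3 CPM against 82.2 and 88.3 CPM. Ctsw read 342 and 307 CPM against 296 and 317 CPM, and Prf1 67.8 and 46.3 CPM against 53.6 and 53.7 CPM. None of these 4 genes reached that mark in either library. Over all T cell-like barcodes Prf1 had only 179 and 166 UMIs and Fasl 244 and 261. For these 2 genes the counts in the CD8 alpha beta gate are so few that a gap of 1.5-fold could go unseen.

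Read against all genes, 4 of 9 members were at least 1.5-fold higher in gamma delta barcodes in the control, where 23.1% of 7997 genes were, and 1 was lower, where 14.6% were. In CreT 3 of 9 were higher against 18.7% of 8615 genes, and 1 lower against 12.1%. Summed, the members read 61142 and 60962 CPM in gamma delta and 25034 and 39442 CPM in CD8 alpha beta barcodes, ratios of 2.44 (2.38 to 2.50) and 1.55 (1.52 to 1.57). CD4 barcodes read lower still, at 15458 and 10972 CPM, and of the 771 Gzma UMIs in the 14 control CD4 barcodes 527 were in 1 barcode. Without the richest barcode Gzma read 4643 and 1497 CPM in the CD4 barcodes, against 9015 and 2367 CPM with it.

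**Figure D2:**
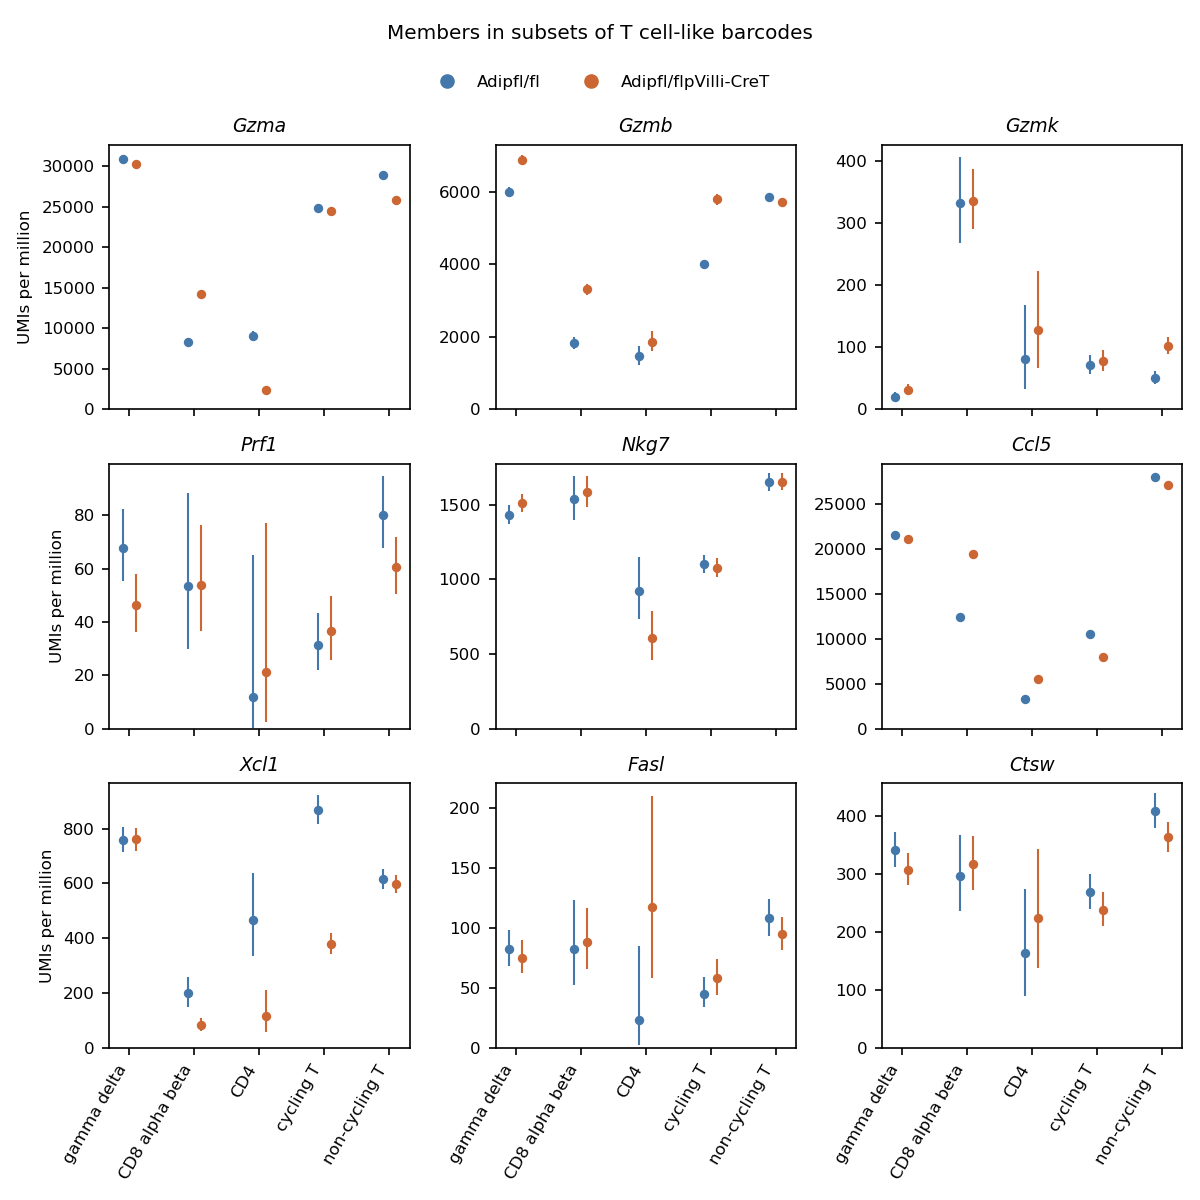
Level of each member (CPM, linear axis from 0) in gamma delta, CD8 alpha beta, CD4, cycling and non-cycling T cell barcodes, with 1 point per library and exact 95% Poisson intervals for counting error as bars. Gzma and Gzmb are higher in gamma delta than in CD8 alpha beta barcodes in both libraries, Gzmk is highest in CD8 alpha beta barcodes, and Ccl5 is lower in cycling than in non-cycling barcodes.

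The 3 most abundant members had CreT to control ratios near 1 in gamma delta barcodes and above 1.5 in the CD8 alpha beta gate, and the latter changed without cycling barcodes. The share of all genes past 1.5-fold between genotypes within that gate was not counted, so these ratios have no background beside them. In gamma delta barcodes the CreT to control ratio was 0.978 (0.965 to 0.990) for Gzma, 0.981 for Ccl5 and 1.15 for Gzmb. In CD8 alpha beta barcodes it was 1.72 (1.64 to 1.80) for Gzma, 1.57 (1.51 to 1.63) for Ccl5 and 1.82 (1.65 to 2.01) for Gzmb. With cycling barcodes left out, 24 control and 83 CreT CD8 alpha beta barcodes remained, and the ratio was 0.911 (0.862 to 0.964) for Gzma, on the other side of 1. It was 1.23 (1.18 to 1.29) for Ccl5 and 1.29 (1.13 to 1.48) for Gzmb. In these barcodes Gzma read 13939 CPM in the control, where 1 barcode held 33.8% of its UMIs, and 12700 CPM in CreT. Without the richest barcode of each library these were 9946 and 12012 CPM, a ratio of 1.21, so that 1 barcode set the side of 1, and the Gzmb ratio was 1.81.

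**Figure D3:**
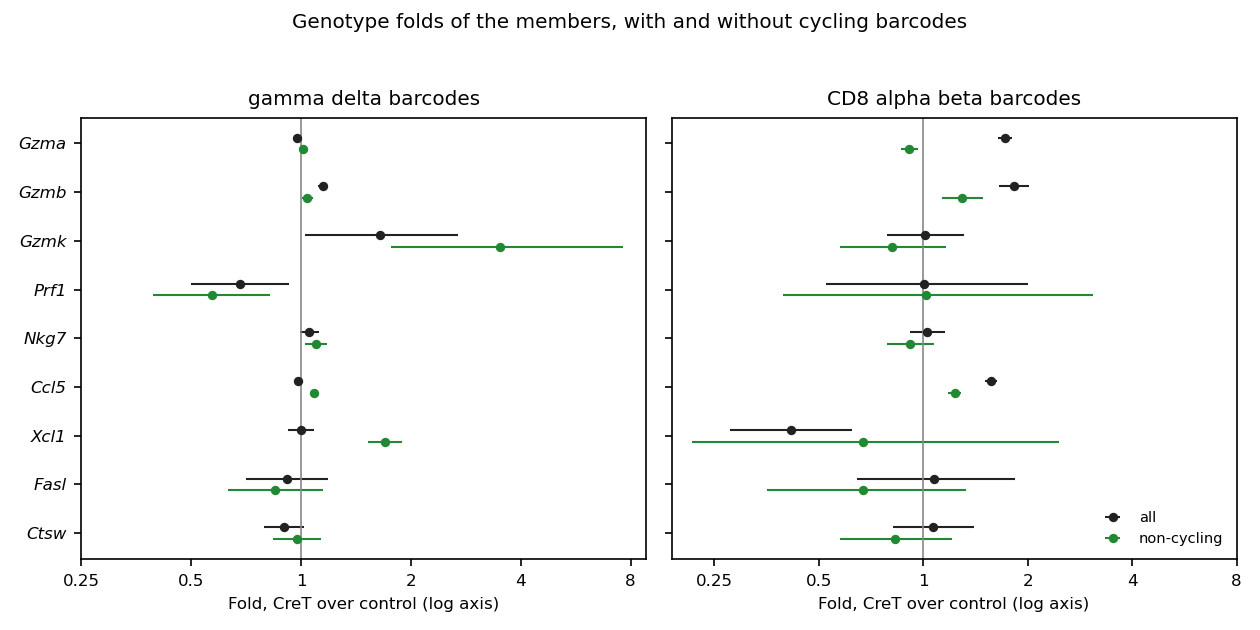
Ratio of CreT to control levels of each member (log axis, 1 means equal) in gamma delta and CD8 alpha beta barcodes, for all barcodes (black) and non-cycling barcodes (green), with 95% intervals for counting error as bars. In CD8 alpha beta barcodes the Gzma ratio is 1.72 over all barcodes and 0.911 over non-cycling ones (1.21 without the richest barcode of each library), and in gamma delta barcodes it is 0.978 over all.

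For Gzmk the level within the CD8 alpha beta gate was the same in both libraries, with a ratio of 1.01, while that gate held 7.86% of control and 18.4% of CreT T cell-like barcodes. The gate gave 93 of the 174 Gzmk UMIs in the control and 194 of 299 in CreT. In gamma delta barcodes Gzmk rested on 29 and 51 UMIs, a ratio of 1.65 (1.03 to 2.70), and on 11 and 39 UMIs in non-cycling gamma delta barcodes, a ratio of 3.52 (1.77 to 7.61). In gamma delta barcodes Prf1 was lower in CreT, with a ratio of 0.683 (0.500 to 0.928), which was 0.834 without the richest barcode of each library. Xcl1 had a gamma delta ratio of 1.00 that joined unlike parts, with 596 and 1013 CPM in non-cycling and 1019 and 409 CPM in cycling barcodes. Single barcodes weighed on these values, and without the richest of each library Xcl1 read 444 and 599.8 CPM in non-cycling and 607 and 319 CPM in cycling gamma delta barcodes. In CD8 alpha beta barcodes its ratio was 0.415 and, without the richest barcode of each library, 1.27.

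Cycling T cell barcodes, with at least 3 UMIs over 10 cell cycle markers, numbered 110 in the control and 95 in CreT, which was 23.4% and 17.1% of the T cell-like barcodes. They were deeper, with medians of 9956 and 9798 UMIs against 4623 and 4098 for the others, so the gate also follows depth. Ccl5 was the member with the widest gap, at 10591 and 8035 CPM in cycling against 27974 and 27155 CPM in non-cycling barcodes, ratios of 0.379 and 0.296. Gzma was nearly level, at 24840 and 24421 CPM against 28846 and 25771 CPM. Gzmb read 4017 and 5796 CPM against 5857 and 5710 CPM.

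As parts of all UMIs, the granule proteins were lower in cycling barcodes in both libraries, with ratios of 0.669 and 0.652 for Nkg7 and 0.660 and 0.655 for Ctsw. These are ratios of CPM and not of molecules per barcode, of which the deeper cycling barcodes can hold more. Ratios for Prf1 were 0.392 and 0.603 and for Fasl 0.417 and 0.612. Xcl1 and Gzmk changed sides between the libraries, with 1.41 and 0.636 for Xcl1 and 1.40 and 0.755 for Gzmk. Summed, the members took 41835 and 40120 CPM in cycling and 65587 and 61507 CPM in non-cycling barcodes.

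Sub-clustering of the T cell-like barcodes, again without the members, gave 7 groups that are called here by genes picked from their leading genes. The grouping used other genes of the same cells, so differences between the groups are a description with no test. Gzma and Gzmb were highest in the groups led by Zmat4 and Pim2 (101 control, 91 CreT barcodes) and by Cd200r2 and Klra5 (81 and 83), which share Ptpn5 and Tyrobp among their leading genes. Gzma read 48079 and 46239 CPM in the Zmat4 group and 49449 and 54666 CPM in the Cd200r2 group, and Gzmb read 8892 to 11402 CPM over both groups and libraries. Ccl5 read 55152 and 50448 CPM in the Zmat4 group, the highest level of any member in any of the 7 groups in the control. In these groups the 9 members took 10.2% to 11.6% of all RNA molecules.

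The group with Tcf7, Batf3, Klra7, Satb1 and Ltb among its leading genes (82 and 89 barcodes) was the opposite. Its first leading genes were Gm19705, Tgm2 and Tmem108. Gzma read 1617 and 1663 CPM there, ratios of 0.0336 and 0.0360 to the Zmat4 group, Gzmb 535 and 319 CPM, and Ccl5 5234 and 4725 CPM, ratios of 0.0949 and 0.0937. Xcl1 read 1666 and 1020 CPM, which was 30.9-fold and 22.5-fold the Zmat4 level of 53.9 and 45.3 CPM, itself from 20 and 13 UMIs. Single barcodes held 221 of the 648 Xcl1 UMIs of the group in the control and 348 of its 590 Gzma UMIs in CreT. Without the richest barcode of each group and library the ratios were 25.5 and 38.2 for Xcl1 and 0.0255 and 0.0154 for Gzma, with Gzma at 1205 and 699 CPM. Nkg7 stayed within the range of the other groups at 1290 and 1412 CPM, and Ctsw was highest here at 612 and 592 CPM. Trdc read 763 and 730 CPM there, against 864 and 1031 CPM in the Cd200r2 group, and Cd8b1 had 0 and 18 UMIs. Markers of natural killer and innate lymphoid cells were also present, with 15 and 11 UMIs of Ncr1, which had 0 to 3 in each other group and library, and Klrb1c at 54.0 and 73.3 CPM, and their part in the levels was not tested. Prf1 read 72.0 CPM in the control, where 1 barcode gave 23 of its 28 UMIs, and 28.2 CPM in CreT.

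**Figure D4:**
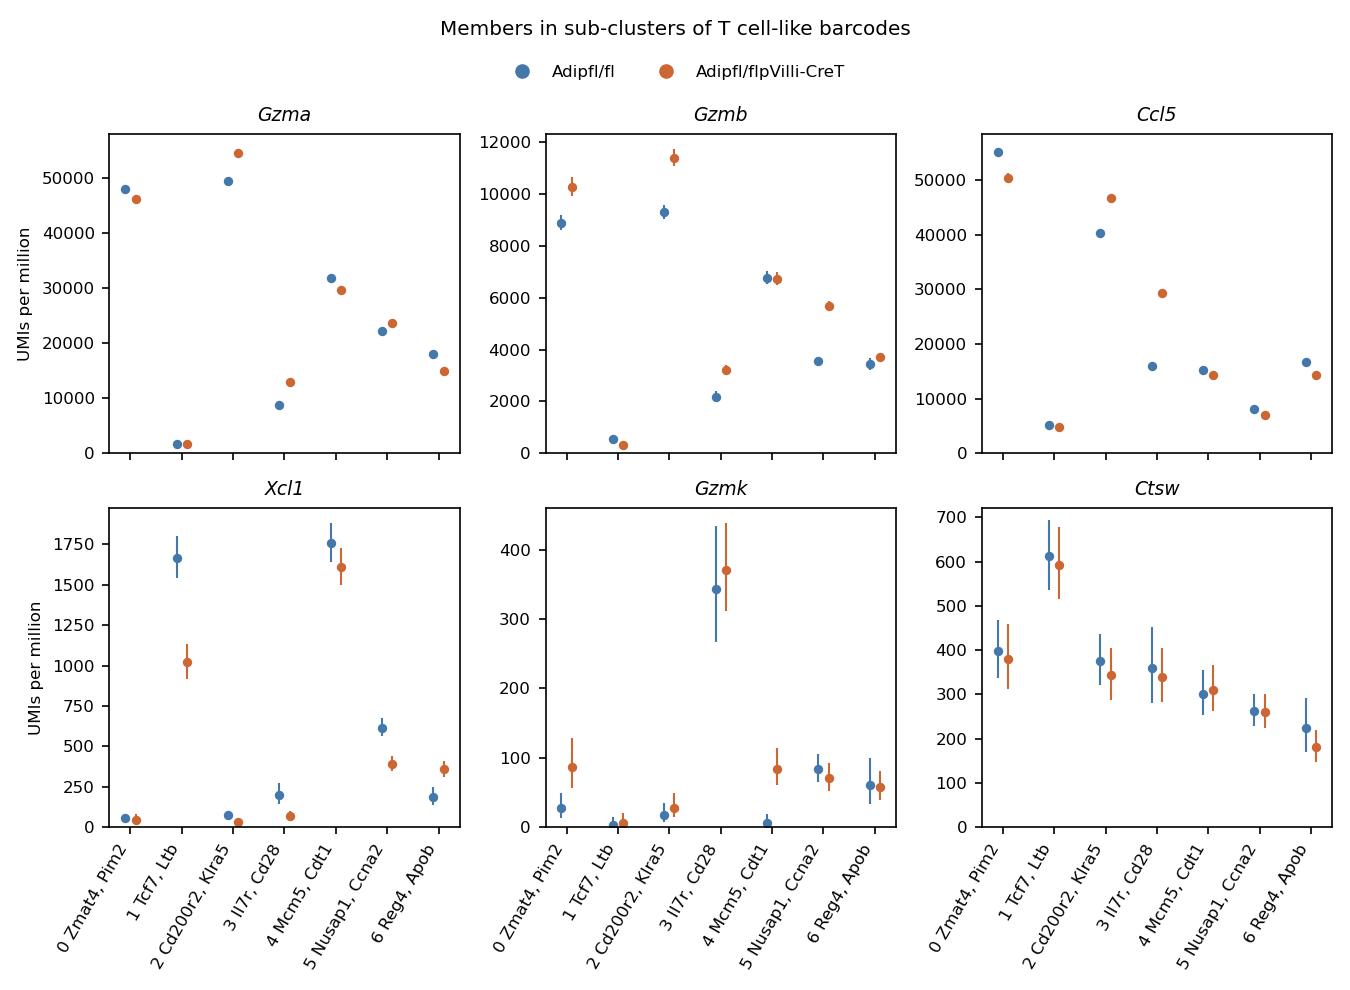
Level of Gzma, Gzmb, Ccl5, Xcl1, Gzmk and Ctsw (CPM) in the 7 T cell sub-clusters, named by leading genes, with 1 point per library and exact 95% Poisson intervals for counting error as bars. The Tcf7 group has the lowest Gzma, Gzmb and Ccl5 and the highest Ctsw, Xcl1 is high in the Tcf7 and Cdt1 groups, and Gzmk is highest in the Il7r group.

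Xcl1 was also high in the group led by the replication genes Cdt1 and Mcm5 and by Batf3, at 1759 and 1609 CPM, in a group where Gzma read 31799 and 29752 CPM. In that group 1 barcode held 246 of 821 Xcl1 UMIs in the control and 393 of 766 in CreT, and without the richest barcode Xcl1 read 1254 and 794 CPM. At 2000 UMIs Xcl1 was seen there without Gzma in 8 and 13 barcodes and with Gzma in 7 and 3, while 82.5% and 79.4% of the barcodes had Gzma. Without thinning it was without Gzma in 8 and 12 and with Gzma in 9 and 8, so the control order depended on thinning. Gzmk was highest in the group led by Il7r, Cd4, Icos, Cd28 and Cd5 (52 and 106 barcodes), at 344 and 371 CPM, 19.6-fold and 13.5-fold its level in the Cd200r2 group, while Gzma read 8691 and 12984 CPM. That group held 75 and 199 UMIs of Cd8b1. In the Cdt1 group Gzmk had 3 UMIs in the control and 40 in CreT.

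The group led by Nusap1 and Ccna2 (65 and 58) read 22309 and 23768 CPM of Gzma and the second lowest Ccl5, 8120 and 7018 CPM. Per barcode it held 13.7 and 14.1 UMIs of Nkg7 and 3.29 and 3.26 of Ctsw, the most of any group. The Zmat4 group held 6.62 and 6.65 of Nkg7 and 1.47 and 1.20 of Ctsw. Ccl5 went the other way, with 102 and 88.0 UMIs per barcode against 203 and 159 in the Zmat4 group. The last group, led by Reg4, Chgb and Apob (30 and 64), carried epithelial RNA, with 2.17% and 3.27% of UMIs from enterocyte markers and 11.4% and 11.0% from mitochondrial genes. It read 18060 and 15025 CPM of Gzma and 16735 and 14398 CPM of Ccl5. Without it the summed CreT to control ratio over T cell-like barcodes was 1.01.

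Within single barcodes Gzma and Gzmb were mostly seen together, and over all T cell-like barcodes Xcl1 was more often seen without Gzma than with it. At 2000 UMIs, 65.7% of control and 65.9% of CreT T cell-like barcodes had both Gzma and Gzmb, 5.57% and 7.30% had Gzma alone of the pair, and 4.45% and 3.16% had Gzmb alone. Xcl1 was seen without Gzma in 65 of 449 and 62 of 507 barcodes and with Gzma in 25 and 25. Without thinning the counts were 75 and 66 without Gzma and 39 and 57 with it. This order did not hold in every subset. Without thinning, cycling barcodes had Xcl1 with Gzma in 20 and 24 and without it in 9 and 9. In CD8 alpha beta barcodes it was with Gzma in 4 and 13 and without it in 1 and 1. At 2000 UMIs cycling barcodes had 13 and 3 with Gzma and 11 and 10 without it. Gzma itself was split among gamma delta barcodes, with 63 and 60 at 0 UMIs, 4 and 13 at 1 to 9, 27 and 24 at 10 to 49, and 136 and 148 at 50 or more. Few gamma delta barcodes thus lay between the absence of Gzma and more than 9 UMIs of it. In the Tcf7 group 69 of 81 and 68 of 84 thinned barcodes had no Gzma, and 53.1% and 53.6% had Xcl1. In CD8 alpha beta barcodes the median was 9 and 12 Gzma UMIs of 2000, and 2 and 20 barcodes had 50 or more.

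**Figure D5:**
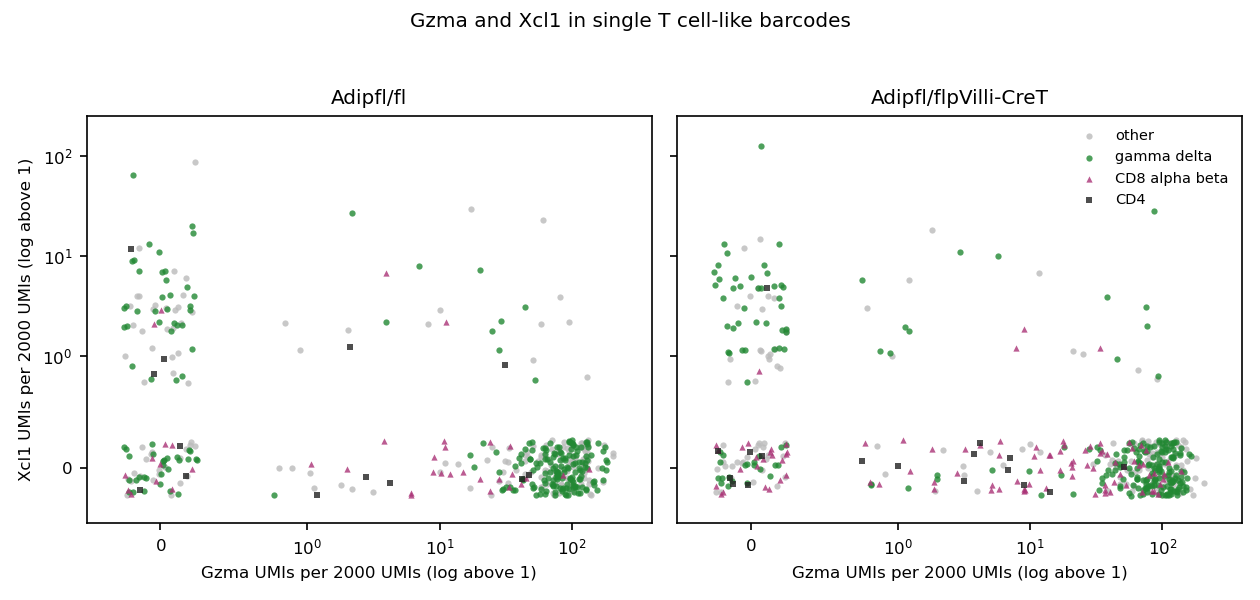
UMIs of Gzma (x axis) and Xcl1 (y axis) in each T cell-like barcode after thinning to 2000 UMIs, on axes that are linear near 0 and logarithmic above, with points moved slightly at random to show overlap, colours for the gates and 1 panel per library. Xcl1 without Gzma was seen in 65 control and 62 CreT barcodes along the left edge, and Xcl1 with Gzma in 25 of each library.

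Across the 7 groups in 2 libraries (14 points), Gzma and Gzmb had a Pearson correlation of 0.989 on the log2(CPM + 1) scale, Ccl5 and Fasl 0.923, Gzma and Xcl1 -0.547, and Ccl5 and Xcl1 -0.846. The points share libraries, and the correlations are descriptions over groups of cells. Among 6917 genes, those most like Gzmk were Tram1 (0.828), Samhd1 (0.801) and Cd8b1 (0.796). Those most like Xcl1 were Myc (0.899), Wdr36 (0.870), Selenof (0.868), Srm (0.852) and the transcription factor gene Batf3 (0.847). Over all cell classes (19 points, 12583 genes) the genes most like the summed members were Actn2 (0.979), Trgc1 (0.966), Cd3d (0.965), Trbc2 (0.961) and Ifng (0.960), of which Trgc1, Cd3d and Trbc2 encode parts of the T cell receptor complex.

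Other genes of the killing pathway came from 7 lists of 89 genes, read in T cell-like barcodes by the same mark of 1.5-fold. Of the 7 granzymes outside the group only Gzmc had 20 or more UMIs, at 23.1 and 30.6 CPM, a ratio of 1.33 (0.962 to 1.84). Gzmd, Gzme, Gzmf, Gzmg and Gzmn had 0 UMIs in both libraries and Gzmm had 9 and 4. Of 15 measured genes of granule matrix, loading and release, 1 was higher in CreT and 0 lower. It was Ctsl, a lysosomal protease, at 4.07 and 11.7 CPM from 12 and 37 UMIs, which enterocyte-like barcodes also carried at 17.0 and 13.7 CPM.

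Among 9 measured death ligands and cytokines, 1 was higher in CreT and 2 lower. Il17a, a cytokine of type 17 T cells, had 0 UMIs in the control and 28 in CreT, past the mark also when 3 UMIs are put in place of 0. Il2, a T cell growth factor, had 24 and 10 UMIs, a ratio of 0.387 (0.165 to 0.840), and Il22, which acts on epithelial cells, 18 and 4 UMIs, a ratio of 0.206 (0.0508 to 0.627). Neither the gamma delta nor the CD8 alpha beta gate held any UMI of Il17a or Il22 in either library.

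Of 6 measured chemokine and chemokine receptor genes and of 13 measured genes of tissue residence and transcription, none reached 1.5-fold. The highest were the chemokine Ccl4 at 544 and 583 CPM and the gut homing receptor Ccr9 at 301.5 and 301.9 CPM in the first list, and the transcription factor Ikzf2 at 993 and 910.1 CPM and the cytokine receptor chain Il2rb at 713 and 620.5 CPM in the second. Ikzf2 and Il2rb followed Gzma in being higher in gamma delta than in CD8 alpha beta barcodes, Ikzf2 at 1053 and 1136 against 157 and 194 CPM and Il2rb at 731 and 729 against 214 and 161 CPM.

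Of 16 measured killer cell receptors and adaptors, 2 were higher and 2 lower in CreT. Klrk1, which encodes the activating receptor NKG2D, had 60 and 29 UMIs, a ratio of 0.449 (0.278 to 0.711), and Klre1, a killer lectin-like receptor, 64 and 38 UMIs, a ratio of 0.552 (0.359 to 0.837). Klrc2 and Klrg1 stood at 1.73 (0.869 to 3.58) and 1.65 (0.687 to 4.24), and both intervals include 1. Among 12 measured inhibitors and targets of the recipient cell, 2 were higher and 1 lower. Serpinb6a, a serpin that inhibits proteases, read 86.1 and 133 CPM, and Btnl1, an epithelial butyrophilin-like gene that gamma delta intraepithelial T cells depend on, 12.9 and 22.7 CPM, with 618 and 668 CPM and 248 and 239 CPM in enterocyte-like barcodes. Tnfrsf14, a receptor of the tumour necrosis factor family, had 15 and 10 UMIs, a ratio of 0.619 (0.249 to 1.47). Over all 10967 genes 1101 were higher and 736 lower.

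Among barcodes removed by the mitochondrial limit, 8 in each library had at least 2 CD3 UMIs. Members took 6.40% of their UMIs in the control and 0.583% in CreT, with Gzma at 26294 and 178 CPM and Ccl5 at 27590 and 4342 CPM. These 8 barcodes per library are too few to compare the genotypes. The share in these 8 barcodes was near that of the T cell-like barcodes in the control, 6.40% against 5.61%. In CreT it was far lower, 0.583% against 5.43%.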

How the data were processed

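Single-cell suspensions of small intestine, described as crypt-enriched epithelium, were run on the 10x Genomics 3′ v3 kit, 1 library per genotype. The study's methods describe tissue pieces digested with collagenase IV and papain. In the myeloid-like cluster 6 of 6 fibroblast or muscle markers were enriched. Whether the T cell-like barcodes came from the epithelium or from the tissue below it was not tested. The deposited files hold raw UMI counts per gene and barcode, with no normalization; the authors made them with Cell Ranger (version 7.1.0 in the file headers) on mm10, with bcl2fastq 5.0.1 named in the submitters' processing notes. The filter of over 500 genes and under 25% mitochondrial UMIs is the stated one. It left 3069 and 5555 barcodes, fewer than the study kept, and how the study reached its number is not given in the sources used here. With only the protein-coding mitochondrial genes counted toward the limit, 7637 and 9729 barcodes passed, more than the study kept.

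Both libraries (42150623 and 63370798 UMIs) were clustered together in R 4.3.3 with Seurat 5.3.0. After log normalization, the 2000 most variable genes outside the members and other Gzm genes were reduced to 20 components, and the Louvain resolution was 0.8. A cluster was named for the class with most markers enriched at least 2-fold with 10 or more UMIs, with at least 3 needed. Cluster names were rebuilt here and can differ from the study's. Doublets were not removed. Names of 3 T cell receptor gamma genes were matched as Trgc1, Trgc2 and Trgc4, and Vamp7 had no row.

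Sums, shares and ratios were computed in Python 3.11.15 with scipy 1.17.1, numpy 2.4.6 and pandas 2.3.3, and drawn with matplotlib 3.10.9. The code was run on simulated Poisson counts. These leave out the clustering of UMIs in single barcodes, so they cannot show how well the intervals hold for these data. Counts and ratios carry exact Poisson and shares exact Clopper-Pearson 95% intervals. PCR duplicates are collapsed by UMI, and the intervals cover counting error only. Cycling barcodes had at least 3 UMIs over 10 markers. Thinning used a fixed seed. With 1 library per genotype no p-value was computed.

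Named genes are the members, the gate genes, list genes past 1.5-fold (otherwise the 2 highest) with 20 or more UMIs, and the 5 genes most like the summed members. The members, gates and lists were chosen with earlier results of these data known. The like genes by sub-cluster, the promoter motifs, the leave-out of cycling, epithelial-rich or richest barcodes and the separation of enterocyte-like barcodes with 10 or more member UMIs were chosen after seeing the data. Alternatives changed the mitochondrial limit, gene minimum, clustering, T cell definition, denominator, weighting, subset gates and thinning depth.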

Additional observations from a re-analysis of the deposited data

Results flagged for a closer look

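Gzma and Ccl5 were flagged for how the genotypes compared within the T cell subsets. Their CreT to control ratios were just under 1 in gamma delta barcodes, 0.978 (0.965 to 0.990) for Gzma and 0.981 (0.966 to 0.996) for Ccl5, and well above 1 in CD8 alpha beta barcodes, 1.72 (1.64 to 1.80) for Gzma and 1.57 (1.51 to 1.63) for Ccl5. The difference between the subsets was not tested, since each genotype has 1 library. How many of all genes passed 1.5-fold between genotypes within each subset was not counted. Without cycling barcodes the Gzma ratio in CD8 alpha beta barcodes was 0.911 (0.862 to 0.964) and that of Ccl5 1.23 (1.18 to 1.29). Without the richest barcode of each library the Gzma ratio there was 2.00 over all barcodes and 1.21 over non-cycling ones, since 1 of the 24 non-cycling control barcodes held 33.8% of the Gzma UMIs. The higher ratio in CD8 alpha beta barcodes was not particular to Gzma and Ccl5. Gzmb, without its richest barcode of each library, had ratios of 2.09 in CD8 alpha beta and 1.14 in gamma delta barcodes.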

How the results depend on the processing

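The CreT to control ratio of the summed members in T cell-like barcodes, 0.968 as reported, was 0.988 with a mitochondrial limit of 10%, 0.999 with over 1000 genes, 0.793 with T cells taken by CD3 UMIs, 1.005 as a mean over barcodes, 0.987 in barcodes with the least enterocyte RNA, 0.953 over CD3 UMIs, 0.938 without cycling barcodes and 1.015 without the epithelial-rich sub-cluster. It thus lay on either side of 1. T cell-like over enterocyte-like levels, 894 in the control and 418 in CreT, were 174 and 105 at the 10% limit, where 3 and 14 T cell-like barcodes became enterocyte-like, 1443 and 1194 by CD3 UMIs, 818 and 388 without mitochondrial UMIs, 961 and 719 as means, 1449 and 1484 without mixed enterocyte-like barcodes and 1045 and 474 without cycling barcodes. In CreT they were 389 with protein-coding mitochondrial genes, 436 at resolution 0.4, 437 with the least enterocyte RNA and 450.4 without the epithelial-rich sub-cluster.

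Gamma delta over CD8 alpha beta sums, 2.44 in the control and 1.55 in CreT, stayed above 1. They were 2.22 and 1.43 with the least enterocyte RNA, 1.97 and 1.14 with subsets by sub-cluster, 2.27 and 1.45 with the gamma chain gate, 1.73 and 1.66 without cycling barcodes and 2.31 and 1.44 without the epithelial-rich sub-cluster. The control was 2.10 as a mean over barcodes. CreT was 1.48 at the 10% limit, 1.51 with protein-coding mitochondrial genes, 1.59 with members kept among the variable genes, 1.51 at resolution 0.4, 1.45 by CD3 UMIs and 1.51 without mitochondrial UMIs. Of 117 alternative ratios of single members, 86 lay within the reported interval and 31 outside it. Of the 6 members whose interval left out 1, Gzmb crossed 1 under 2 alternatives (0.916 by CD3 UMIs, 0.975 without cycling barcodes) and Ccl5 under 3 (1.015 with over 1000 genes, 1.03 as a mean and without the epithelial-rich sub-cluster). Xcl1 was 0.631 without the richest barcode of each library. No replicate could be left out with 1 library per genotype, and shares of the scarcer members depend on depth, with Ctsw in 29.4% of CreT barcodes at 1000 UMIs and 74.0% without thinning.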
